A study of Mus musculus with 3 samples.

Results

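Transcripts of 10 genes of the Notch pathway were followed in scratch-wounded fibroblasts from mouse tail, cultured with a soluble micrograft and the MEK inhibitor PD0325901. The genes comprise 4 receptors (Notch1, Notch2, Notch3 and Notch4), 3 ligands (Jag1, Jag2 and Dll1) and 3 transcriptional targets (Hes1, Hey1 and Heyl). They were chosen by name from the 43472 rows of the expression table, and all 10 were found there. The fibroblasts came from the tail tips of C57BL/6 mice, were scratched in culture and were then kept for 5 h with micrograft (MG, the soluble fraction of minced mouse skin) and PD0325901, which blocks the kinase upstream of ERK. The 3 libraries are labelled as replicates of this single condition, so every library carried both agents. Their titles do not say whether they came from separate animals or cultures. Untreated and MG-only cells were not analysed here, and no effect of MG or of the inhibitor was computed.

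In the Notch pathway, a receptor on one cell is bound by a ligand of the Jagged or Delta family on its neighbour and is then cut by an ADAM protease and by γ-secretase. The released intracellular domain enters the nucleus, joins RBPJ and a Mastermind coactivator, and switches on repressors of the Hes and Hey families. In skin the pathway is best known for keratinocyte differentiation and for the vessel wall, where endothelial cells carry Notch1 and Notch4 and mural cells carry Notch3.

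Replicates 1, 2 and 3 held 22540518, 27037783 and 17244505 reads on genes. A normalized count is the number of reads on a gene divided by the size factor of its library, and a gene was called detected with at least 10 normalized counts in each library. All 8 fibroblast markers examined, among them Col1a1, Col3a1 and Pdgfra, were detected. Pairs of libraries were compared gene by gene with two-sided exact binomial tests on reads, adjusted by Benjamini-Hochberg over all genes tested. These tests cover counting error only. A call means that 2 libraries differed beyond counting error, and not that conditions or cultures differed.

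Among these 10 genes, Notch2, Jag1 and Hes1 were the leading receptor, ligand and target, and 7 of the 10 were detected. Jag1 and Hes1 were nearly level across the replicates, whereas Notch3 and Notch4 stood apart in replicate 2 in opposite directions. Jag2 and Dll1 rested on at most 8 reads in any library, and Heyl had none.

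**Figure D1:**
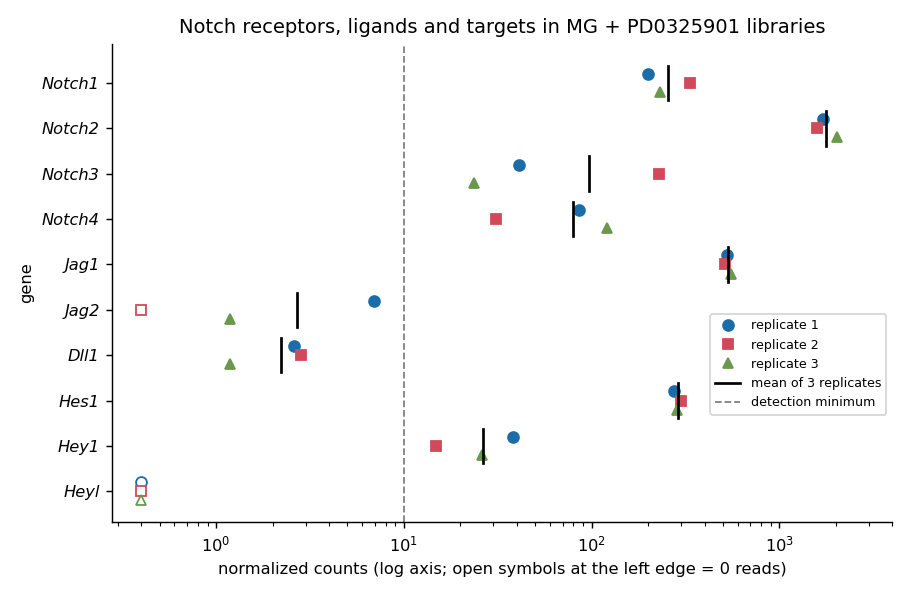
Normalized counts (log axis) of the 10 Notch genes in each of the 3 MG + PD0325901 libraries, with the mean as a black bar and the detection minimum of 10 as a dashed line. Open symbols mark 0 reads. The replicates of Jag1 and Hes1 lie almost on each other, and Notch3 is highest in replicate 2, where Notch4 is lowest.

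Among the receptors, Notch2 (chromosome 3, 98013527 to 98150361, plus strand, GRCm38) reached 1717 normalized counts in replicate 1, 1578 in replicate 2 and 2026 in replicate 3, on average 1774 ± 229 (SD, n = 3). Notch1 (chromosome 2, 26457903 to 26516663, minus strand) reached 199, 334 and 231, on average 255 ± 70.6 (SD, n = 3). Replicate 2 was the highest library for Notch1 and the lowest for Notch2. For Notch1 it was 1.68-fold above replicate 1 (95% exact interval 1.43 to 1.98, adjusted p = 1.36e-10) and 1.45-fold above replicate 3 (1.22 to 1.72, adjusted p = 2.68e-05, exact binomial tests), while replicates 1 and 3 did not pass the test (adjusted p = 0.197). For Notch2 all 3 pairs passed, although the ratios were small, from 1.09-fold between replicates 1 and 2 (adjusted p = 0.0109) to 1.28-fold between replicates 2 and 3 (adjusted p = 5.65e-14, exact binomial tests).

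Notch3, the receptor of vascular mural cells, lies on chromosome 17 from 32120820 to 32166852 (minus strand). It had 40.8, 228 and 23.7 normalized counts in replicates 1, 2 and 3, from 47, 323 and 20 reads. Replicate 2 was thus 5.58-fold above replicate 1 (95% exact interval of counting error 4.10 to 7.74, adjusted p = 2.95e-39) and 9.60-fold above replicate 3 (6.11 to 15.9, adjusted p = 2.22e-41, exact binomial tests). Replicates 1 and 3 differed by 1.72-fold, which did not pass the test (adjusted p = 0.0840, exact binomial test). Of all 12202 detected genes, 0.803% had a larger ratio of highest to lowest library than Notch3.

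Notch4, known from endothelium, lies on the same chromosome from 34564268 to 34588503 (plus strand). It had 86.0, 31.0 and 121 normalized counts in replicates 1, 2 and 3, from 99, 44 and 102 reads. Replicate 2 was the low library here, 2.77-fold below replicate 1 (95% exact interval 1.93 to 4.05, adjusted p = 1.52e-08) and 3.90-fold below replicate 3 (2.71 to 5.69, adjusted p = 1.03e-14, exact binomial tests). The 1.41-fold difference between replicates 1 and 3 also passed the test (adjusted p = 0.0366, exact binomial test). A ratio larger than that of Notch4 was seen in 4.44% of detected genes. In replicate 1 and replicate 3 Notch4 was above Notch3, and in replicate 2 the order was turned: the ratio of Notch3 to Notch4 in normalized counts per kb of exon was 0.473, 7.32 and 0.195 in replicates 1, 2 and 3.

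The promoters of Notch3 and Notch4 are shown because these receptors stood apart in opposite directions and because the study concerns AP-1, a factor downstream of ERK. The sequences run 5′ to 3′ along each gene, from 250 bases before the RefSeq start up to base 3 of the transcript (GRCm38.p6), and capitals mark a match to the AP-1 motif TGANTCA. Notch3 is at chr17:32166888-32167140 on the minus strand and Notch4 at chr17:34564045-34564297 on the plus strand.
Notch3: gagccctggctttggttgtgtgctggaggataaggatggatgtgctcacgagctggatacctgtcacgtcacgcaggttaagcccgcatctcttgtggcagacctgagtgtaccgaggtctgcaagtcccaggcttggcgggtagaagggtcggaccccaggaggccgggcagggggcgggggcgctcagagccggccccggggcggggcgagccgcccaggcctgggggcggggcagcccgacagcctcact
Notch4: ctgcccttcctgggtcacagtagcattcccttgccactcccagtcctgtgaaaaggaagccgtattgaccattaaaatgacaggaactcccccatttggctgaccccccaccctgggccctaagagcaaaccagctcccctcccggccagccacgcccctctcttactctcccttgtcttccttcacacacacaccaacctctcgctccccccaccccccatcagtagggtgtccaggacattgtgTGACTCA
Notch4 held the match TGACTCA across its RefSeq start, from base -4 to base 3, and Notch3 held none. The starts differ between annotations: that of Notch4 in GENCODE lies upstream of the match, which is then inside the gene, and that of Notch3 in GENCODE lies downstream of the RefSeq start. In windows of 300 bases (250 before the start and 50 after it), both strands were searched, and 7.81% of all 32851 RefSeq windows held TGANTCA. Of the 10 genes, 7 had a window, and Dll1 was the other one with a match (TGATTCA, from base -109 to base -103). The RBPJ core TGGGAA was in none of the windows of these 7 genes and in 25.6% of all windows. Hes1, Hey1 and Heyl had no entry. A match is a stretch of letters in the reference genome and was not tested for binding.

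Of the ligands, Jag1 (chromosome 2, 137081456 to 137116644, minus strand) had the smallest range of the 7 detected Notch genes, close to that of Hes1. Its normalized counts were 524 in replicate 1, 516 in replicate 2 and 550.0 in replicate 3, averaging 529.8 ± 17.9 (SD, n = 3). No pair of libraries differed for Jag1 by the exact binomial test (adjusted p = 0.825, 0.541 and 0.355), and the 95% exact intervals of the ratios lay between 0.883 and 1.20. Across detected genes, 97.8% had a larger ratio of highest to lowest library than Jag1, which was 1.07. Jag2 (chromosome 12, 112907819 to 112929776, minus strand) had 8, 0 and 1 reads, and Dll1 (chromosome 17, 15367354 to 15376872, minus strand) had 3, 4 and 1 reads. Both had fewer than 10 reads in each pair of libraries and were not among the genes tested. With no such minimum, Jag2 passed between replicates 1 and 2 (adjusted p = 0.00380, exact binomial test), and Dll1 passed in no pair.

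Hes1 and Hey1 encode basic helix-loop-helix repressors that bind DNA downstream of Notch. Hes1 (chromosome 16, 30064384 to 30067796, plus strand) held normalized counts of 276, 298 and 286, averaging 287 ± 11.0 (SD, n = 3), so that replicate 2 exceeded replicate 1 by only 1.08-fold. For this gene, too, no pair of libraries passed the exact binomial test (adjusted p = 0.378, 0.779 and 0.699), and 96.9% of detected genes had a larger range. Hey1 (chromosome 3, 8663359 to 8667256, minus strand) was far lower, with 38.2, 14.8 and 26.1 normalized counts from 44, 21 and 22 reads. Replicate 2 was 2.58-fold below replicate 1 for Hey1 (95% exact interval 1.5 to 4.57, adjusted p = 0.000478, exact binomial test). The 1.76-fold difference between replicates 2 and 3 did not pass (0.924 to 3.37, adjusted p = 0.119), nor did the 1.47-fold difference between replicates 1 and 3 (0.860 to 2.57, adjusted p = 0.250, exact binomial tests). Heyl (chromosome 4, 123233556 to 123249875, plus strand), a further repressor of this family, had 0 reads in every library, which allows up to 2.61, 2.11 and 3.56 normalized counts in replicates 1, 2 and 3.

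Counted over the 7 genes with enough reads to be tested, 5 were called between replicates 1 and 2, where 69.1% of all 14768 genes tested were called. Between replicates 2 and 3 the calls were 4 of 7, against 62.6% of all genes, and between replicates 1 and 3 they were 2 of 7, against 52.0%. In each pair the share called among these genes was thus near or below that of all genes. Those called in the first pair were Notch1 and Notch3, higher in replicate 2 (36.0% of all genes), and Notch2, Notch4 and Hey1, higher in replicate 1 (33.1%). Those called in the second were again Notch1 and Notch3, higher in replicate 2 (32.1%), with Notch2 and Notch4 higher in replicate 3 (30.5%). Between replicates 1 and 3, Notch2 and Notch4 were called higher in replicate 3, as were 26.5% of all genes, and none of the 7 was called higher in replicate 1, as were 25.5%. When a call also required more than 2-fold, 3 of 7 were called between replicates 1 and 2 (20.6% of all genes), 2 between replicates 2 and 3 (16.6%) and none between replicates 1 and 3 (9.40%). Without regard to the test, the highest library exceeded the lowest by over 2-fold for Notch3, Notch4 and Hey1, 3 of 7 detected genes, against 22.0% of all 12202 detected genes. Without replicate 2, none of the 7 had a range above 2-fold, against 6.68% of 12543 genes. Without replicate 1 the count was 2 (13.0% of 12380 genes), and without replicate 3 it was 3 (15.8% of 12416). Notch3 was the only one of the 7 more than 2-fold above both other libraries in replicate 2, where 5.34% of 13152 genes with a mean of at least 10 were, and Notch4 the only one more than 2-fold below both, where 5.09% were. None of the 7 stood apart in this way in replicate 1 (2.49% of genes above, 2.13% below) or in replicate 3 (1.31% above, 2.52% below).

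Longer transcripts collect more reads, so genes were ordered by normalized counts per kb of exon. On this scale Notch2 led with 164 ± 21.2, followed by Hes1 with 141 ± 5.40 and Jag1 with 90.9 ± 3.07 (SD, n = 3). The order of these 3 genes was the same in each library, although Notch2 and Hes1 were level in replicate 2, with 146 normalized counts per kb each. Jag1 was 5.08-fold above Notch1, the next gene, and the lowest library of Jag1 was above the highest of Notch1. Notch1 with 17.9 ± 4.96, Notch3 with 12.0 ± 14.0, Notch4 with 9.84 ± 5.62 and Hey1 with 8.07 ± 3.59 normalized counts per kb (SD, n = 3) had overlapping libraries, and neighbours among them were not separated. Hes1 took the first place when the length of the longest transcript or the coding length was used, so the order of Notch2 and Hes1 depends on the gene model. Notch2 was above 60.9% and Hey1 above 5.45% of the 11620 detected genes with a length.

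As a share of the 4 receptors per kb of exon, Notch2 made up 84.3% in replicate 1, 72.5% in replicate 2 and 84.6% in replicate 3, on average 80.5% ± 6.88 (SD, n = 3). Notch1 followed with 7.40%, 11.6% and 7.31%. The share of Notch3 was 2.67%, 13.9% and 1.32%, and that of Notch4 was 5.65%, 1.91% and 6.75%. Replicate 2 thus had the lowest share of Notch2 and the highest of Notch1 and Notch3. The sum of the 4 receptors, most of it Notch2, varied little, with 189, 202 and 222 normalized counts per kb. Notch1, Notch3 and Notch4 together had 29.7, 55.4 and 34.2 in replicates 1, 2 and 3. Among the 3 ligands, Jag1 made up 98.2%, 99.3% and 99.5% per kb.

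**Figure D2:**
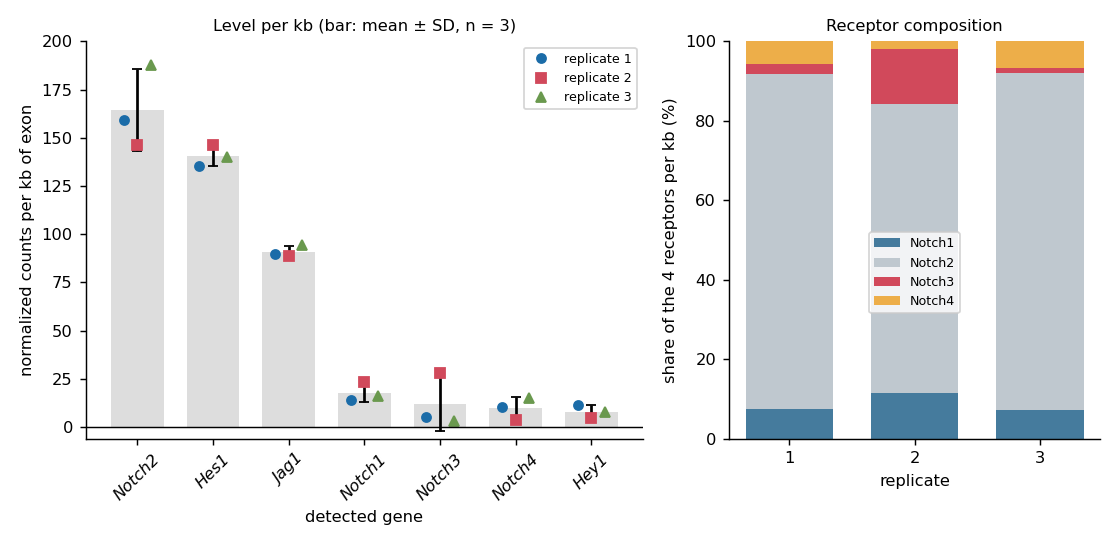
Left, normalized counts per kb of exon of the 7 detected genes, as bars of the mean with the SD (n = 3) and a symbol for each replicate. Right, share of each receptor in the sum of the 4 receptors per kb, in percent, by replicate. Notch2, Hes1 and Jag1 stand clear of the other genes, and the Notch3 share is 13.9% in replicate 2 against 2.67% and 1.32% in replicates 1 and 3.

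The other genes of the pathway were read from a list of 53, of which 41 were detected. Most were steady: 4 of the 41 had a range above 2-fold (9.76%), against 22.0% of all detected genes, and their median range was 1.41-fold, against 1.49-fold. Replicate 2 was the highest library for 19 of the 41 (46.3%), against 40.6% of all detected genes. Of the 46 tested between replicates 1 and 2, 33 were called (71.7%, against 69.1% of all genes), 22 of them higher in replicate 2 (47.8%, against 36.0%). Between replicates 2 and 3, 31 of 43 were called (72.1%, against 62.6%), 19 of them higher in replicate 2 (44.2%, against 32.1%), and between replicates 1 and 3 the count was 25 of 46 (54.3%, against 52.0%). The shares called were thus near or above those of all genes.

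**Figure D3:**
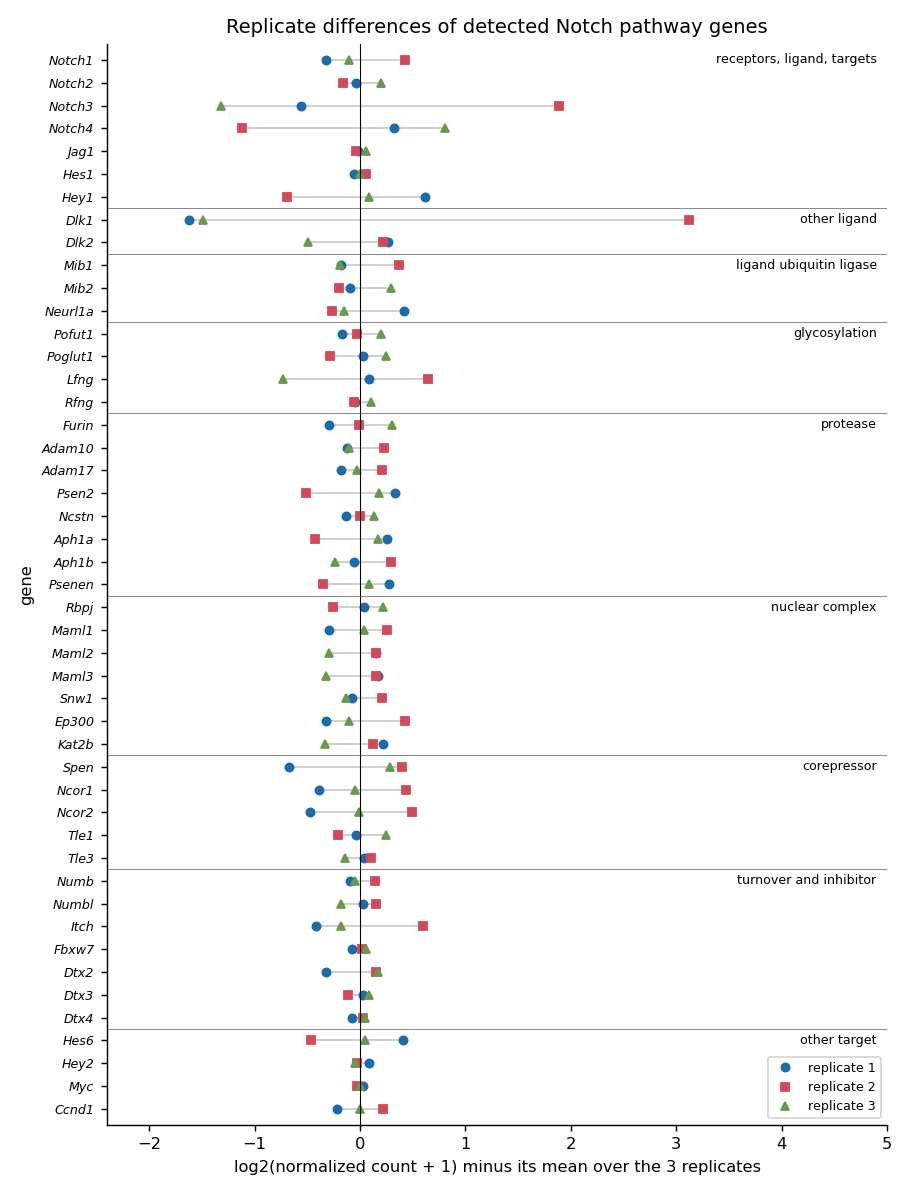
For detected genes of the Notch pathway, log2(normalized count + 1) in each replicate minus the mean over the 3 replicates, grouped by role. Most genes lie within 0.5 of their mean, and Notch3, Notch4 and Dlk1 reach farthest from it, with Dlk1 and Notch3 high in replicate 2.

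The 4 genes with a range above 2-fold were Dlk1, Lfng, Spen and Itch. Each was highest in replicate 2, as were 40.6% of all detected genes, and that share was not computed for genes above 2-fold. Only Dlk1, 1 of 42 pathway genes with a mean of at least 10, was more than 2-fold above both other libraries there. Of all 13152 genes with such a mean, 5.34% were. Dlk1, a non-canonical ligand that lacks the receptor-binding DSL domain and is known for holding back adipocyte differentiation, had 44.3, 1208 and 48.6 normalized counts in replicates 1, 2 and 3. Replicate 2 was 27.3-fold above replicate 1 (95% exact interval 20.7 to 36.8) and 24.9-fold above replicate 3 (18.3 to 34.8), and 0.0983% of detected genes had a larger range. Per kb of exon, Dlk1 was 2.41 times the level of Jag1 in replicate 2 and 0.0871 and 0.0910 times that level in replicates 1 and 3. Lfng, a fringe enzyme that adds sugars to the receptors, had 67.7, 100.1 and 37.9 normalized counts. Spen, a corepressor that binds RBPJ, had 305, 640 and 591, and Itch, a ubiquitin ligase that targets Notch, had 877, 1772 and 1036. For Spen, replicates 2 and 3 did not pass the test (1.08-fold, adjusted p = 0.216, exact binomial test), and its range came from a low replicate 1. The canonical ligands Dll3 and Dll4 had at most 3 reads in any library.

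Transcripts of most of the machinery that modifies, cuts and transmits the receptor were detected in each replicate, and proteins were not measured. Of the 10 proteases and γ-secretase subunits, 9 were detected, and none of them had a range above 2-fold. Ncstn, the substrate-binding subunit nicastrin, had 3763, 4110.0 and 4504 normalized counts, and Adam10, which makes the first cut after ligand binding, had 1714, 2189 and 1735. Aph1c was at the limit of detection with 9.55, 8.46 and 11.9 normalized counts, and its close copy Aph1b had 202, 258 and 178. Reads from these copies may be hard to tell apart. All 7 genes of the nuclear complex were detected, with ranges below 2-fold, and Rbpj had 3897, 3169 and 4428 normalized counts. Of the fringe genes, Rfng led with 162 ± 10.5 normalized counts per kb (SD, n = 3), Lfng had 27.4 ± 12.4 and Mfng had no reads.

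Other Hes and Hey genes differed widely in level. Hes6, which counteracts Hes1, had 607, 331 and 472 normalized counts and was above Hes1 per kb in each replicate, by 2.48, 1.25 and 1.86 times. Hey2 had 70.3, 64.8 and 64.0 normalized counts and, unlike Hey1, a range of only 1.10-fold. Hes3 and Hes5 had 0 reads in each library, and Hes2 had at most 1 read. Nrarp, a feedback inhibitor induced by Notch, had 6.08, 2.11 and 3.56 normalized counts. Myc, a target in several tissues, had 1309, 1257 and 1286 normalized counts, and 99.2% of detected genes had a larger range. Ccnd1, another target on the list, had 5962, 8059 and 6916. Its range was 1.35-fold, and 65.4% of detected genes had a larger one.

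Markers of other cells that carry these receptors were read beside them. In bulk RNA, fewer cells of a type and less RNA per cell cannot be told apart. None of the 6 endothelial markers was detected in every library, and Emcn and Cldn5 had no reads. Their sum was 20.8, 190 and 5.93 normalized counts in replicates 1, 2 and 3, and in replicate 2 it consisted almost wholly of Tek, the angiopoietin receptor, with 6.95, 185 and 2.37. Of the 8 mural markers, 6 were detected, and their sum was 9131, 12576 and 15915 normalized counts. Of the detected ones, 3 were highest in replicate 2 (50%, against 40.6% of all detected genes). The others were highest in replicate 1 (1 marker, 16.7%, against 31.5%) and in replicate 3 (2 markers, 33.3%, against 27.9%). Des followed Notch3, with 212, 1208 and 77.0. Mcam (886, 1496 and 544) and Myh11 (1383, 1587 and 584) ranked the libraries as Notch3 did. Their replicate 2 exceeded replicate 1 by 1.69-fold and 1.15-fold, against 5.58-fold for Notch3. The remaining detected mural markers ranked them otherwise. Cspg4, which carried most of the sum in replicate 3, had 3546, 5232 and 11476. Rgs5 had 208, 106 and 104, and Pdgfrb was nearly level with 2894, 2942 and 3129. Kcnj8 and Abcc9 were at most 0.705 and 4.23 normalized counts. Sums of the 5 keratinocyte markers were 81.6, 39.5 and 34.4 normalized counts, nearly all from Krt10, with Krt15 and Krt1 at 0. The sums of the 4 leukocyte markers, none of which was detected in every library, were 4.34, 8.46 and 62.8. Both this sum and Notch4 were highest in replicate 3. The sum was lowest in replicate 1 and Notch4 in replicate 2, though no leukocyte marker had more than 7 reads in either of those libraries. In replicate 3 the sum came mostly from Laptm5 (36.7) and Tyrobp (15.4), with Ptprc at 1.19. Fibroblast markers also went different ways: of the 8, 2 were highest and 3 lowest in replicate 2. These shares were 25% and 37.5%, against 40.6% and 37.3% of all detected genes. Thy1 was high there as Notch3 was, with 2031, 15760.0 and 1652, whereas Lum had 5073, 289 and 1164 and Dcn had 3661, 1723 and 3659. The part of these markers in the levels of Notch3 and Notch4 was not tested.

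The genes whose pattern was most like that of Notch3 and Notch4 were sought among the 9990 genes averaging 100 normalized counts or more. Likeness was the root mean square difference of log2(normalized count + 1), centred on its mean over the 3 libraries. Closest to Notch3 were Pdgfd, a growth factor of the PDGF family, with 399, 1997 and 244 normalized counts (difference 0.08), and Sned1, a matrix protein gene, with 92.0, 624 and 59.3 (difference 0.12). For Notch4 the closest were Elovl7, a fatty acid elongase, with 129, 46.5 and 183 normalized counts (difference 0.01), and Trpv4, a calcium channel, with 182, 63.4 and 244 (difference 0.03). With 3 libraries many genes share a pattern: 57 genes lay within 0.5 of Notch3 and 649 within 0.5 of Notch4.

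**Figure D4:**
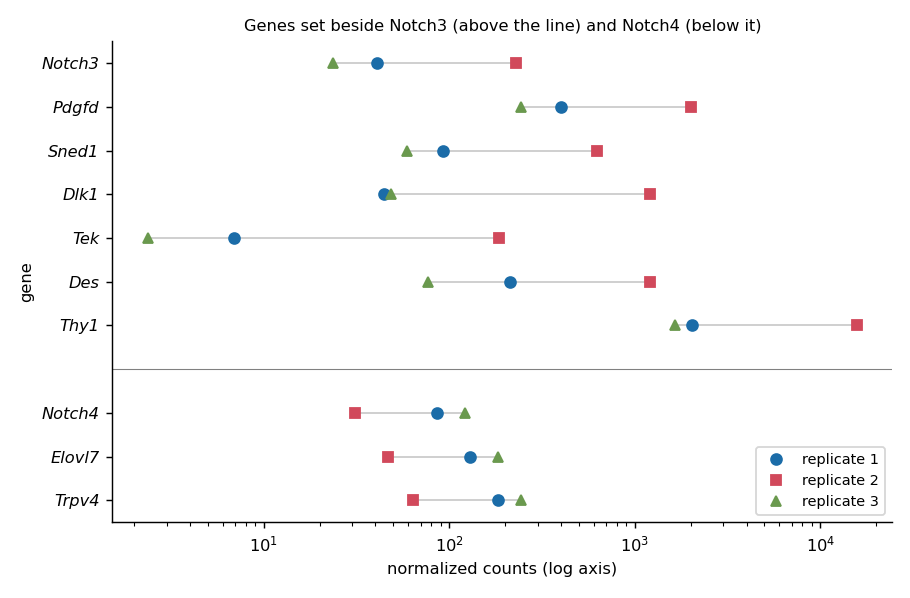
Normalized counts (log axis) by replicate of Notch3 with its closest genes Pdgfd and Sned1 and with Dlk1, Tek, Des and Thy1, above the line, and of Notch4 with Elovl7 and Trpv4, below it. Each gene above the line is highest in replicate 2, and each gene below it is lowest there. Pdgfd, Sned1, Elovl7 and Trpv4 were picked for their likeness to these patterns, so their direction follows from the choice. Dlk1, Tek, Des and Thy1 were chosen for the plot after their values were seen, so their direction follows from the choice too. Their lists also hold genes that went other ways. Replicate 2 was highest for 3 of 6 detected mural markers, 2 of 8 fibroblast markers and 19 of 41 detected pathway genes, against 40.6% of all detected genes. Tek, like the other endothelial markers, was not detected in every library.

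The exons of Notch1 share 1068 and 414 bases with genes annotated on the opposite strand, those of Notch3 share 488 and those of Dll1 share 867. Notch2 shares 541 bases of exon with another gene model on its own strand. Whether the counting used strand is not given in the sources used here, so reads in these stretches could have been assigned differently or dropped.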

How the data were processed

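RNA-seq was analysed from 3 libraries, labelled as replicates of 1 condition. The authors aligned single-end reads to mm10 with TopHat2 2.0.13, handled alignments with SAMtools 0.1.19.24, counted unique reads per gene with HTSeq 0.5.3p3 and used DESeq. The gene annotation, the strand setting and the libraries behind the size factors are not given in the sources used here. The deposited signal is the read count of each gene divided by 1 size factor per library, by the authors (1.15, 1.42 and 0.844). In each library 100% of values were whole multiples of 1 read within 0.01 read, so reads were recovered by division. Left out were 3 columns that matched no sample's labels and 4 rows with a repeated gene name.

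Each gene with 10 or more reads in a pair of libraries was tested by an exact binomial test (two-sided), the expected share taken from the size factors, with Benjamini-Hochberg adjustment at 0.05. Intervals and floors (3 reads) cover counting error only, since reads carried no molecular identifiers. The count tests of DESeq and edgeR need a second group and were not run, and TMM factors alone were taken from edgeR 4.0.16 (R 4.3.3). Python 3.11.15 with numpy 2.4.6, pandas 2.3.3 and scipy 1.17.1 did the rest, and the binomial step was tested on simulated data. Exon lengths and positions came from GENCODE M21 (GRCm38, the build of mm10) and promoters from RefSeq (GRCm38.p6). Protein sequences were not used here. A gene of the pathway list, included in its counts, is not reported or drawn here.

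The genes named were the 10 Notch genes, a list of 53 pathway genes, marker lists, and the 2 closest genes by pattern for each Notch gene with a range above 2-fold and a mean of at least 100, a mean that none of them reached. The minimum of 50 was used in its place after the values were seen, and the counts of genes apart in 1 replicate and of highest libraries were added then too. The genes and lists were chosen with earlier results of these data known. Alternatives were other scalings, minimums, fold limits, pseudocounts and lengths, and each replicate left out.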

Additional observations from a re-analysis of the deposited data

How the results depend on the processing

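No paired analysis was possible because the 3 libraries belong to 1 group, with no other group to pair them with. With a minimum of 100 normalized counts, 4 of the 10 Notch genes were detected in place of 7. With a replicate left out, the count with a range above 2-fold was between 0 and 3 for the Notch genes and for the other pathway genes. For both it was 0 without replicate 2, and for the other pathway genes it was 2 without replicate 1. Detection was read in the libraries kept, so 42 of the other pathway genes were detected without replicate 1 and 41 without replicate 2 or 3. Requiring more than 2-fold lowered the calls, by construction, to 3 between replicates 1 and 2, 0 between replicates 1 and 3 and 2 between replicates 2 and 3. With equal totals, 1 gene was called between replicates 1 and 3. By longest transcript and by coding length, Hes1 ranked 1 and Notch2 ranked 2 per kb. By coding length Hey1 ranked 5, Notch3 6 and Notch4 7. With a replicate left out, Notch3 ranked between 5 and 7, Notch4 between 5 and 7 and Hey1 between 6 and 7. The share of Notch1 among the receptors was 12.2% by longest transcript and 8.78% by union of exons. The rank changes follow from the lengths or the library left out, and the cause of the change with equal totals was not tested. The means of the 10 genes moved by less than 1 SD under both other scalings (20 of 20 values). Both scalings were set to the same overall size as the size factors, so means over the libraries could move little. Heyl, with no reads, could not move. With no minimum of reads, Jag2 joined the calls between replicates 1 and 2, for 6 in place of 5. The floor of 3 reads, at most 3.56 normalized counts, lies below the detection minimum of 10, so Jag2, Dll1 and Heyl missed that minimum by level.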
